A study of Mus musculus with 83 samples.

Results

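Arc, Npas4 and 8 further genes (Homer1, Nptx1, Nptx2, Ier2, Ier5, Dusp1, Btg2 and Nrn1) were followed across neuron types and ages in the mouse frontal cortex. They come from a list of activity-induced effectors, a name that is loose for some. Npas4 encodes a transcription factor, and of the pentraxin genes Nptx1 and Nptx2 the activity-induced one is Nptx2. All 10 genes were taken by symbol, and they are 10 of the 48795 genes in the count table. Every one of them was found, and none was chosen by a threshold on a measured value. Their RNA was measured in 83 pools of 125 neurons cut by laser from 14 µm sections of male C57BL/6 mice, for which the labels name no transgene or treatment. Mice were young (2 months) or old (22 months). Cells were picked after staining for Slc17a7 (pyramidal cells, PYC), Pvalb (parvalbumin interneurons, PV), Sst (somatostatin interneurons, SST) or Vip (vasoactive intestinal peptide interneurons, VIP). Each type gave 12 old pools, and 9 young pools for PYC, SST and VIP or 8 for PV. The comparisons asked how the 10 genes differ between the neuron types and between the ages.

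Genes of this kind link the firing of a neuron to lasting change at its synapses. Calcium that enters an active neuron switches on kinases, which phosphorylate transcription factors such as CREB and SRF that already sit at the promoters, so that transcription starts without new protein synthesis. One set of the induced genes encodes transcription factors, and another, the effectors, encodes proteins that act at the synapse or on the signalling cascade itself. In cortex their RNA rises after sensory experience, learning or seizures and decays quickly, so a level in a tissue section reflects recent activity as well as cell type.

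Depth varied widely, from 1.46 M to 27.2 M counts per pool (median 6.99 M). In 6 pools the genes encoded by mitochondrial DNA (mt- genes) took 0.215% to 2.51% of the counts, against 8.31% to 17% in the other 77. These 6 were 1 old and 1 young PYC pool, 1 young SST pool, and 1 old and 2 young VIP pools. Tests of the 10 genes were also run without them. Medians and ranges by type, and the lists of other genes below, are given with all pools only. The stained targets were each higher in their own pools than in any other type by mean level, with Slc17a7 at 777 ± 225 CPM (SD, n = 12; CPM is the count of a gene scaled to the library total) in old PYC pools and Sst at 789 ± 199 CPM (SD, n = 12) in old SST pools. Slc17a7 also had counts in every interneuron pool. The summed level of 10 pyramidal markers, all 10 of which had counts in every group, ran from 3325 to 6836 CPM in PYC pools, 2382 to 5387 CPM in VIP, 1692 to 2986 CPM in SST and 1090 to 2604 CPM in PV. That order of types is also the order of several genes below, and the part of pyramidal cell RNA in their differences was not tested. The labels do not tie a pool to a mouse, so pools of different types from 1 mouse were treated as independent. In a pool, fewer expressing cells and less RNA per cell cannot be told apart.

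The promoters of 5 of the 10 genes were available from RefSeq (GRCm38.p6, 250 bases before to 50 after an annotated start), those of Npas4, Homer1, Ier5, Dusp1 and Btg2. They were searched for the core of the cAMP response element that CREB binds, TGACG on either strand, and 4 of them are shown because they separate genes with and without it among the members that differed between types. Capitals mark TGACG or its reverse complement CGTCA, and where they overlap they form the full palindrome TGACGTCA.
Npas4: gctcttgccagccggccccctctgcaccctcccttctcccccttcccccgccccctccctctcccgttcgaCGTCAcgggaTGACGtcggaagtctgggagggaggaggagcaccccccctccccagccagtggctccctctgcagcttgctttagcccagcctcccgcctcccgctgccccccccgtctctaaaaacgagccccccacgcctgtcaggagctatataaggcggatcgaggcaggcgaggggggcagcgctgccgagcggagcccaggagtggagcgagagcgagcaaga
Homer1: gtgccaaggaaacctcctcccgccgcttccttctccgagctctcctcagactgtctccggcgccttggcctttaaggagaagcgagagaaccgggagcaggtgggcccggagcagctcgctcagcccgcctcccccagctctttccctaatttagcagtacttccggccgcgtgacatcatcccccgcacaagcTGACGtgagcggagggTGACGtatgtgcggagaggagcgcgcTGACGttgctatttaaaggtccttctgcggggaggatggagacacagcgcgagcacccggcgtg
Ier5: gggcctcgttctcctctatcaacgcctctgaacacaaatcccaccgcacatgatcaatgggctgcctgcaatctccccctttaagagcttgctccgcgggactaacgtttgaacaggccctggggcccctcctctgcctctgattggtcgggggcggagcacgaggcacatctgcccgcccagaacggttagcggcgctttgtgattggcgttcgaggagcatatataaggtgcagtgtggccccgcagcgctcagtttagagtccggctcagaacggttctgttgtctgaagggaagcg
Dusp1: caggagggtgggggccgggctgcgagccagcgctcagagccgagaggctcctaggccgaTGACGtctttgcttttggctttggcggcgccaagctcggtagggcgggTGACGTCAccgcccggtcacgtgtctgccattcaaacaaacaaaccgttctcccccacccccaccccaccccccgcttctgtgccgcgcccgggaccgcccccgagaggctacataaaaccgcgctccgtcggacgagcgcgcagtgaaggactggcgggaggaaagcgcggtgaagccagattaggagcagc
The sequences run 5′ to 3′ on the gene's strand, from chr19:4989922-4990221 (minus strand) for Npas4, chr13:93303507-93303806 (plus) for Homer1, chr1:155099587-155099886 (minus) for Ier5 and chr17:26508423-26508722 (minus) for Dusp1. In Npas4 the matches begin at positions -179 and -169 relative to that start, and in Homer1 they begin at -56, -40 and -14. Dusp1 has matches at -191, -143 and -140, the latter pair being the 2 strands of the palindrome. Btg2 has the palindrome too, at -166, and Ier5 has no match in this window, nor does a second Homer1 promoter in the table. Counted by gene, TGACG on either strand stands in a promoter of 6228 of the 27025 genes of the table and of 4 of these 5. The palindrome stands in 549 of the 27025 genes and in 2 of the 5. Counted by promoter, the shares are 20.8% and 1.79% of 32851 promoters. The CArG box that SRF binds stands in 488 of the 27025 genes (1.63% of promoters) and in 0 of the 5. A match is a description of letters and not of binding. For Npas4, Homer1 and Dusp1 the RefSeq start lies inside the locus given with their values, which spans all annotated transcripts.

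Compared with each other per length of exon in the pyramidal pools, the members had their highest mean levels for Nptx1 and Nrn1. Nptx1 averaged 100 ± 29.6 CPM per kb (SD, n = 21) and Nrn1 85.6 ± 41.3 CPM per kb (SD, n = 21) in PYC pools. Arc followed with 49.0 ± 33.5 CPM per kb (SD, n = 21). Nptx2, Homer1 and Ier5 had means from 16.8 to 23.4 CPM per kb there, Npas4 and Dusp1 had 6.14 and 4.28 CPM per kb, and Btg2 and Ier2 had 1.70 and 1.18 CPM per kb. The members thus cover a wide span of levels, and the lowest of them had no count in many pools. Exon length is that of all annotated transcripts joined, which lowers the value of Homer1, a gene with 12 transcripts.

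**Figure D1:**
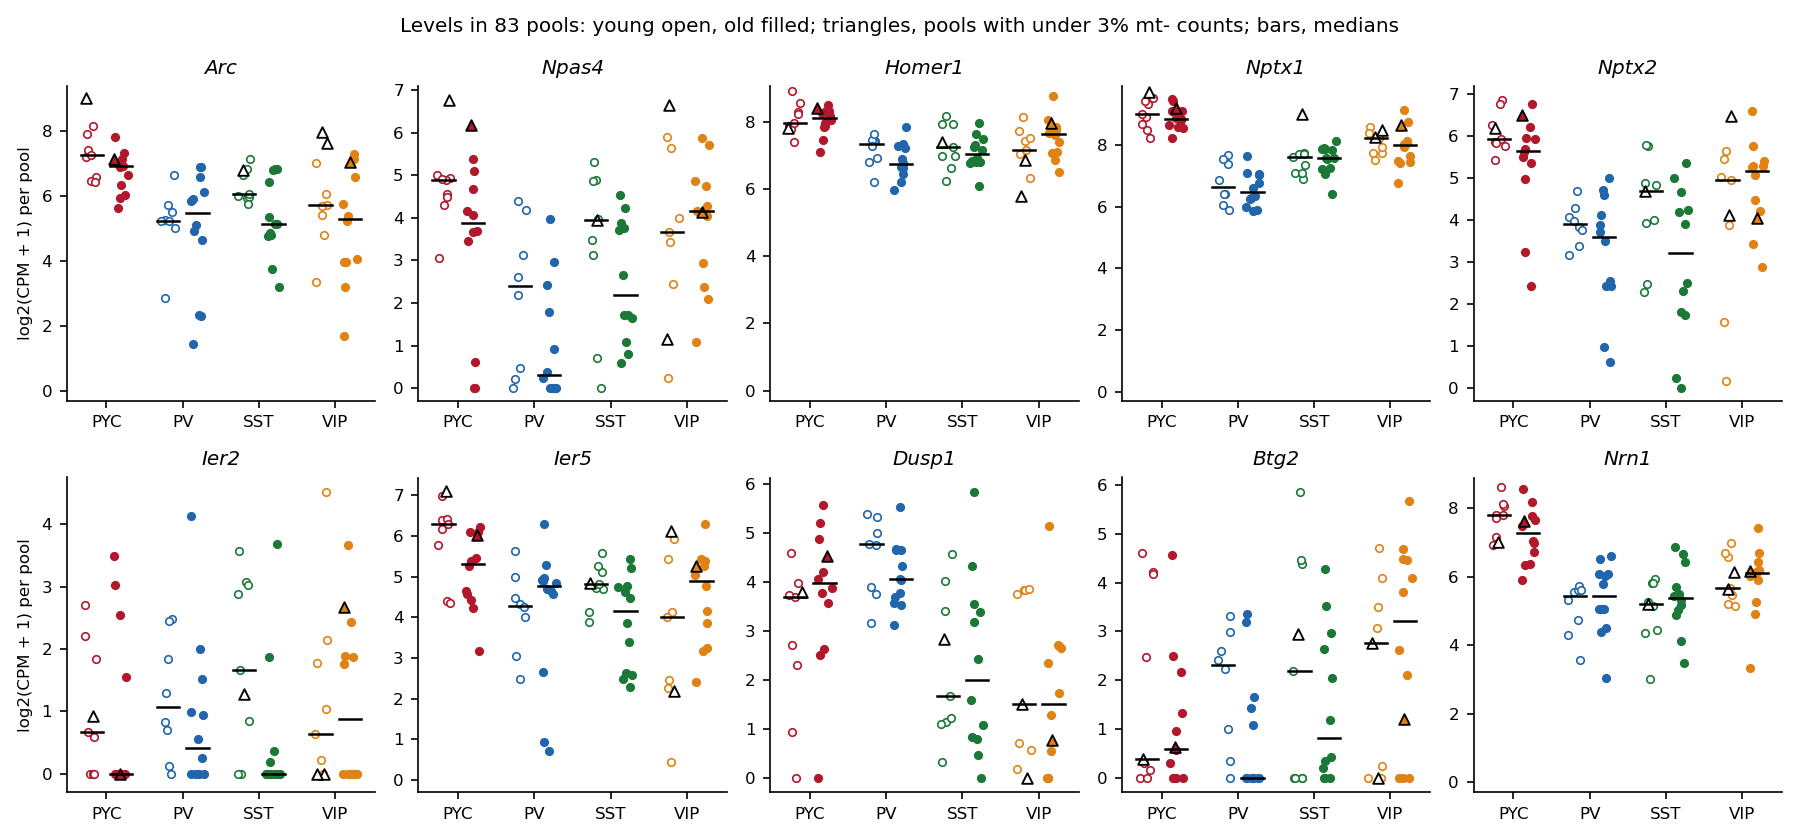
Level of each of the 10 genes in each of the 83 pools, as log2(CPM + 1) on the y axis, by neuron type on the x axis; open circles are young and filled circles old pools, triangles are the 6 pools with under 3% mt- counts, and bars are group medians. Nptx1 and Nrn1 sit higher in PYC than in the other types, Dusp1 has its highest medians in PV, and Ier2 and Btg2 have many pools at 0.

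Most members were higher in pyramidal pools than in interneurons. In PYC pools against the mean of the other types, 6 of the 10 members were higher (Arc, Homer1, Nptx1, Nptx2, Ier5 and Nrn1) and 0 were lower, where 6.84% of the 15433 genes tested were higher and 5.14% lower. Their median log2 fold change over all 10 members was 1.31, against 0.011 over all genes. PV pools were set against a mean that includes PYC. There 6 members were lower (Arc, Npas4, Homer1, Nptx1, Nptx2 and Nrn1), where 9.18% of genes were, and 1 was higher (Dusp1), where 7.41% were. Against VIP alone Npas4, Nptx1 and Nptx2 were lower in PV, and Nptx1 was also lower against SST. Arc, Homer1 and Nrn1 passed against neither, with adjusted p from 0.0983 to 0.953 (edgeR pair tests). In SST pools 2 members were lower (Nptx1 and Nrn1), where 2.11% of genes were, and 0 were higher, where 3.81% were. In VIP pools 0 members passed in either direction, where 5.64% of genes were higher and 3.77% lower. No member had an unadjusted p under 0.05 for a lower level in PYC or a higher level in SST. These calls are edgeR quasi-likelihood tests over all 83 pools with an adjusted p (Benjamini-Hochberg) under 0.05, and for VIP 3 members had an unadjusted p under 0.05, DESeq2 called 0 and limma-voom 1.

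**Figure D2:**
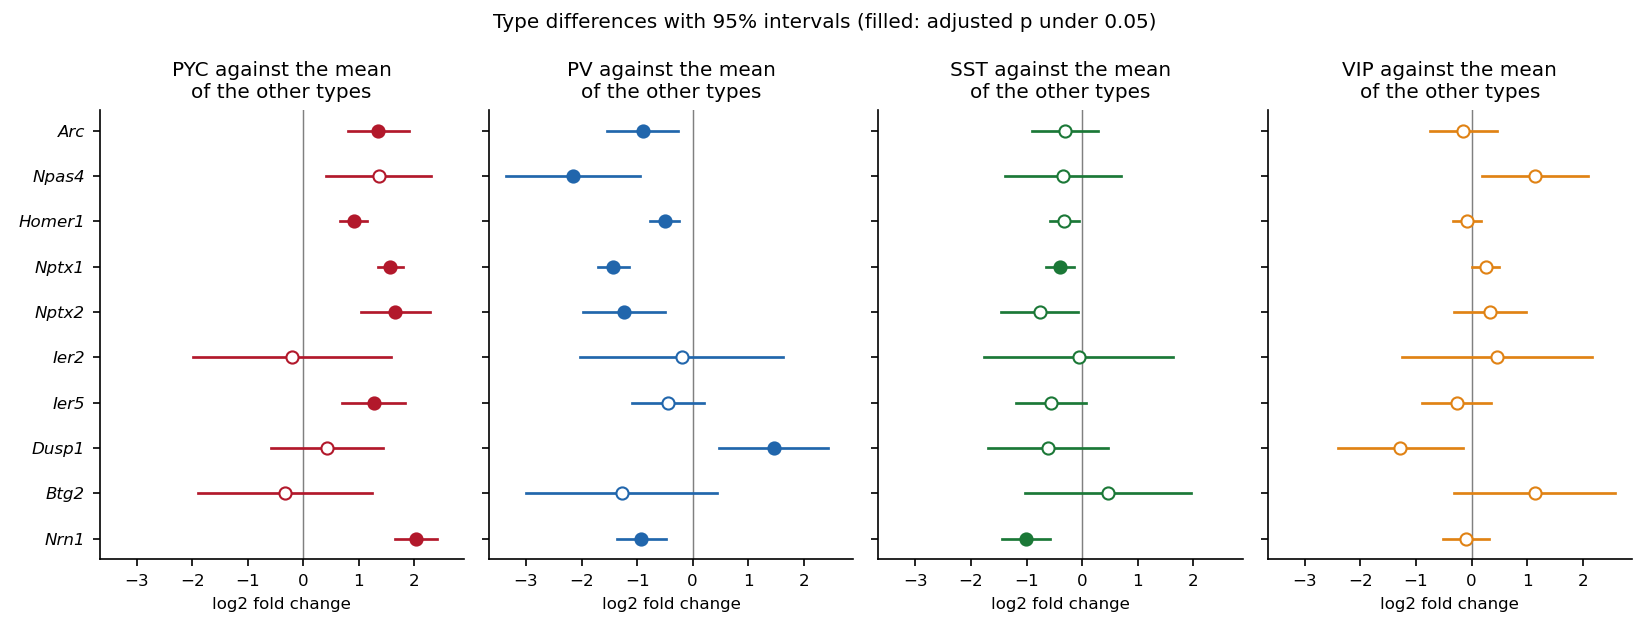
Log2 fold change (x axis) of each gene (y axis) in 1 neuron type against the mean of the other 3, from 1 edgeR fit of 83 pools; lines are 95% intervals and filled points have an adjusted p under 0.05. PYC has 6 filled points, all to the right of 0, PV has 6 to the left and Dusp1 to the right, SST has 2 to the left and VIP has none.

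Arc (ENSMUSG00000022602, chr15:74669083-74672570, minus strand, GRCm38) encodes a protein of dendrites and spines that promotes the removal of AMPA receptors from the synapse and can form capsids that carry its own RNA. Its median level was 128 CPM in PYC pools (48.4 to 512 CPM, n = 21), 61.5 CPM in SST (8.30 to 141 CPM, n = 21), 51.1 CPM in VIP (2.26 to 251 CPM, n = 21) and 36.9 CPM in PV (1.745 to 116.8 CPM, n = 20). Every pool had counts of Arc, and the ranges of all 4 types overlapped. Arc was 2.56-fold higher in PYC than in the mean of the others (log2 fold change 1.36 ± 0.28, SE, edgeR adjusted p = 0.00019). PYC exceeded PV by 1.69 ± 0.39 (SE, adjusted p = 0.000626), SST by 1.25 ± 0.37 (SE, adjusted p = 0.0183) and VIP by 1.13 ± 0.37 (SE, adjusted p = 0.044) on the log2 scale. The 3 interneuron types did not differ beyond their spread, with adjusted p = 0.959 between VIP and SST, 0.635 between SST and PV and 0.383 between VIP and PV. The order of VIP and SST was not stable, since SST had the higher median, the fit with all pools put SST lower than VIP (-0.12) and the fit without the pools of low mt- share put it higher (0.31). Without the 6 pools of low mt- share the PYC difference was 1.35 ± 0.29 (SE, adjusted p = 0.000315). The lower level in PV, -0.90 ± 0.33 (SE, adjusted p = 0.0472) with all pools, was then -0.71 ± 0.32 (SE, adjusted p = 0.134), and the PYC to SST difference had an adjusted p of 0.0534 (edgeR).

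Homer1 (ENSMUSG00000007617, chr13:93299635-93405129, plus strand) encodes scaffold proteins of the postsynaptic density that join glutamate receptor complexes to Shank and to the IP3 receptor. The short form, Homer1a, is the one that activity induces and it uncouples these links, but counts per gene do not tell it from the long forms. The median was 264 CPM in PYC (135 to 476 CPM), 169.5 CPM in VIP (53.9 to 429 CPM), 141 CPM in SST (66.8 to 286 CPM) and 119 CPM in PV (61.1 to 228 CPM). The types overlapped, and the spread within a type was smaller relative to the mean than that of Arc. PYC was higher than the mean of the others by 0.91 ± 0.12 (SE, edgeR adjusted p = 2.4e-09), a 1.875-fold difference, and higher than VIP, the next type, by 0.74 ± 0.16 (SE, adjusted p = 0.000326). PV was lower than the mean of the others by 0.51 ± 0.14 (SE, adjusted p = 0.0039), whereas neighbours among the interneurons had adjusted p = 0.734 (VIP and SST) and 0.772 (SST and PV).

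Npas4 (ENSMUSG00000045903, chr19:4984355-4990316, minus strand) encodes a transcription factor that calcium entry induces in neurons and that regulates the inhibitory synapses a neuron receives. Its median was 21.5 CPM in PYC (0 to 107 CPM), 15.6 CPM in VIP (0.186 to 99.7 CPM), 10.2 CPM in SST (0 to 38.7 CPM) and 0.652 CPM in PV (0 to 20.2 CPM). It had no count in 6 of 20 PV pools, 2 of 21 PYC pools and 1 of 21 SST pools, where 3 counts would have been 0.209 to 1.18 CPM. PV pools lay at the bottom of the scale, although the highest PV pools overlapped with the other types. PV was 4.45-fold lower than the mean of the others (-2.15 ± 0.62, SE, edgeR adjusted p = 0.00698), with a difference of 2.63 ± 0.70 (SE, adjusted p = 0.00285) between PYC and PV and of 2.47 ± 0.69 (SE, adjusted p = 0.0056) between VIP and PV. PYC and VIP did not differ beyond their spread, at 0.16 ± 0.63 (SE, adjusted p = 0.958, interval -1.07 to 1.40). PYC against the mean of the others was 1.36 ± 0.49 (SE) with an adjusted p of 0.0501, and 1.01 ± 0.54 (SE, adjusted p = 0.288) without the 6 pools of low mt- share (edgeR).

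The neuronal pentraxins Nptx1 (ENSMUSG00000025582, chr11:119538719-119547753, minus strand) and Nptx2 (ENSMUSG00000059991, chr5:144545902-144557478, plus strand) are secreted proteins that cluster AMPA receptors, and Nptx2, also called Narp, is the activity-induced one that pyramidal cells supply to synapses on PV interneurons. Nptx1 had a median of 486 CPM in PYC (300.4 to 847 CPM), 262.5 CPM in VIP (109 to 565 CPM), 190.5 CPM in SST (83.7 to 512 CPM) and 91.3 CPM in PV (57.7 to 202 CPM). The PYC and PV ranges did not overlap. Each step of this order passed the edgeR test, with 0.98 ± 0.15 (SE, adjusted p = 3.5e-07) between PYC and VIP, 0.48 ± 0.15 (SE, adjusted p = 0.0419) between VIP and SST and 0.77 ± 0.16 (SE, adjusted p = 0.000109) between SST and PV on the log2 scale. Against the mean of the other types, Nptx1 was 2.96-fold higher in PYC (1.57 ± 0.12, SE, adjusted p = 4.7e-22), 2.69-fold lower in PV (-1.43 ± 0.14, SE, adjusted p = 4.1e-15) and 1.31-fold lower in SST (-0.39 ± 0.13, SE, adjusted p = 0.0449). Within 1 age alone the step between VIP and SST did not pass, with adjusted p = 0.526 in young and 0.164 in old pools.

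Nptx2 was less abundant and more variable. Its median was 56.2 CPM in PYC (4.42 to 113 CPM), 31.6 CPM in VIP (0.134 to 95.1 CPM), 14.9 CPM in SST (0 to 53.8 CPM) and 12.9 CPM in PV (0.535 to 31.0 CPM). The types overlapped over much of the scale, with the highest VIP pool at 95.1 CPM, and single pools of PYC and VIP fell to a few CPM or below. PYC was 3.16-fold higher than the mean of the others (1.66 ± 0.31, SE, edgeR adjusted p = 1.8e-05) and PV 2.34-fold lower (-1.23 ± 0.38, SE, adjusted p = 0.0127). VIP lay between, 1.17 ± 0.43 above PV (SE, adjusted p = 0.0485) and 0.999 ± 0.42 below PYC (SE, adjusted p = 0.148). Without the 6 pools of low mt- share the difference between VIP and PV had an adjusted p of 0.103 (edgeR).

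Nrn1 (ENSMUSG00000039114, chr13:36725361-36735131, minus strand), or neuritin, is a small protein anchored to the membrane that promotes growth of neurites and stability of synapses. Its median was 198 CPM in PYC (59.0 to 393 CPM), 67.2 CPM in VIP (9.04 to 172 CPM), 42.7 CPM in PV (7.22 to 97.0 CPM) and 37.8 CPM in SST (7.05 to 115.8 CPM). PYC pools were mostly above the interneuron pools, with overlap at the low end of PYC. The PYC difference was the largest among the members, 4.09-fold (2.03 ± 0.19, SE, edgeR adjusted p = 4.5e-16), and PYC exceeded VIP, the next type, by 1.60 ± 0.26 (SE, adjusted p = 9.6e-07). SST was lower than the mean of the others by 1.01 ± 0.22 (SE, adjusted p = 0.000522) and PV by 0.92 ± 0.22 (SE, adjusted p = 0.00112), and PV and SST did not differ beyond their spread (adjusted p = 0.953). An exon of Nrn1 overlaps one of Fars2 on the opposite strand, and whether the counting used strand is not known here.

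The other members encode regulators inside the cell. Ier5 (ENSMUSG00000056708, chr1:155096361-155099636, minus strand) encodes a growth factor-induced nuclear protein that binds the phosphatase PP2A. Its median was 54.1 CPM in PYC (7.98 to 136 CPM), 25.1 CPM in SST (3.88 to 47.2 CPM), 23.3 CPM in PV (0.656 to 77.6 CPM) and 16.95 CPM in VIP (0.373 to 76.9 CPM). The interneuron types lay together and PYC above them with overlap. PYC was 2.41-fold higher than the mean of the others (1.27 ± 0.29, SE, edgeR adjusted p = 0.000627), and the interneuron types did not differ beyond their spread, with adjusted p from 0.899 to 0.959 over their 3 pairs. In old pools alone the PYC difference was 0.85 with an adjusted p of 0.24 (edgeR), and without the 6 pools of low mt- share it was 1.198 ± 0.31 (SE, adjusted p = 0.00309). The difference between PYC and VIP had an adjusted p of 0.0444 with all pools and 0.08 without those 6 (edgeR).

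Dusp1 (ENSMUSG00000024190, chr17:26505590-26562128, minus strand) encodes a phosphatase that switches off MAP kinases and so closes the cascade that induced it. It was the only member that was higher in PV pools than in the mean of the other types. The pairs of PV with PYC and with SST did not pass. PYC against PV was -0.77 ± 0.66 (SE, edgeR adjusted p = 0.551) and PV against SST 1.55 ± 0.67 (SE, adjusted p = 0.153). The median of Dusp1 was 17.3 CPM in PV (7.73 to 44.7 CPM), 12.6 CPM in PYC (0 to 46.4 CPM), 2.19 CPM in SST (0 to 56.1 CPM) and 1.82 CPM in VIP (0 to 34.1 CPM). Every PV pool had counts, whereas 2 PYC, 1 SST and 4 VIP pools had none, and the upper ends of the ranges overlapped. PV was 2.75-fold higher than the mean of the others (1.46 ± 0.50, SE, edgeR adjusted p = 0.03) and 2.06 ± 0.68 above VIP (SE, adjusted p = 0.0234). Without the 6 pools of low mt- share these were 1.39 ± 0.51 (SE, adjusted p = 0.048) and 1.83 (adjusted p = 0.0727), and within young or old pools alone the PV difference had an adjusted p of 0.134 and 0.466 (edgeR). An exon of Dusp1 overlaps one of Ergic1 on the opposite strand, a gene with 69487 counts over the 83 pools. Whether the counting used strand is not known here either, and the part of Ergic1 in the Dusp1 values was not tested.

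Ier2 (ENSMUSG00000053560, chr8:84661331-84662852, minus strand), a nuclear protein of the early growth response, and Btg2 (ENSMUSG00000020423, chr1:134075170-134079120, minus strand), a factor that restrains proliferation and binds the CCR4-NOT deadenylase, had no count in many pools. Ier2 had no count in 11 of 21 PYC, 6 of 20 PV, 10 of 21 SST and 9 of 21 VIP pools, and its highest pool had 22.0 CPM. Btg2 had no count in 6 of 21 PYC, 8 of 20 PV, 7 of 21 SST and 6 of 21 VIP pools, and its highest pool had 57.2 CPM. In the pools without a count, 3 counts would have been 0.264 to 1.63 CPM for Ier2 and 0.194 to 2.06 CPM for Btg2, for counting error only. No difference between types was detected for either gene (edgeR adjusted p of 0.401 or more against the mean of the other types).

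Over the 6 pairs of types, 24 of the 60 gene and pair combinations passed. PYC and PV differed in 7 of the 10 members where 15.8% of all genes differed, PYC and SST in 6 where 9.43% did, and PYC and VIP in 5 where 8.2% did. Among the interneurons the counts were 4 of 10 between PV and VIP (15.7% of genes), 1 of 10 between PV and SST (9.28%) and 1 of 10 between SST and VIP (4.83%). All 18 calls between PYC and an interneuron type were in the direction of higher PYC. With young pools alone 13 and with old pools alone 15 of the 60 passed, and none of the calls made with all pools had the opposite sign in either. With the F number of the sample names as a factor, the calls that no longer passed were those of Ier5 between PYC and each interneuron type (adjusted p from 0.0583 to 0.0868), Nptx2 and Dusp1 between PV and VIP (0.0705 and 0.052), Nptx1 between SST and VIP (0.0767), Nptx1 in SST (0.0706) and Arc in PV (0.102) against the mean of the others (edgeR).

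Other genes of the activity response were described in the same fit, from lists made with earlier results of these data known. Of 20 rapidly induced transcription factors, 17 were tested, and 6 were higher and 0 lower in PYC, with a median log2 fold change of 0.62. The zinc finger factors Egr1 and Egr3 were higher by 1.59 ± 0.16 (SE, edgeR adjusted p = 9e-15) and 1.74 ± 0.22 (SE, adjusted p = 1.3e-10), and in PV both were lower, by 1.52 ± 0.20 and 1.07 ± 0.26 (SE). In PV 3 of the 17 were lower and 0 higher, in SST 1 was lower and in VIP 1 was higher, the nuclear receptor gene Nr4a1 (0.92 ± 0.30, SE, adjusted p = 0.0317). Of 30 further effectors, 27 were tested. In PYC 5 of them were higher, among them Bdnf, a secreted neurotrophin (2.55 ± 0.61, SE, adjusted p = 0.0011), and the kinase gene Plk2 (1.26 ± 0.14, SE, adjusted p = 1.1e-12), while Scg2, a granin of dense-core vesicles, was lower (-1.34 ± 0.17, SE, adjusted p = 1.2e-10). In PV 3 of the 27 were lower and 0 higher, in SST 1 was higher and 2 were lower, and in VIP 1 was higher. Over all genes 6.84% were higher and 5.14% lower in PYC, and 7.41% higher and 9.18% lower in PV. In SST 3.81% were higher and 2.11% lower, and in VIP 5.64% and 3.77%. The single calls in VIP are thus close to the share over all genes.

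The genes that act before and beside the members were mixed, and the shares over all genes just given hold for them too. Of 18 upstream regulators, 7 were higher and 1 lower in PYC, with the kinase gene Camk4, which phosphorylates CREB, higher by 1.503 ± 0.11 (SE, edgeR adjusted p = 7e-22), and 2 were higher and 5 lower in PV. Of 26 partners, which share Arnt and Arnt2 with the regulators, 25 were tested. In PYC 7 of them were higher and 4 lower, and in PV 2 were higher and 10 lower. Nptxr, the membrane receptor that gathers Nptx1 and Nptx2, was higher in PYC (1.32 ± 0.09, SE, adjusted p = 2e-26) and in VIP (0.75 ± 0.09, SE, adjusted p = 2e-11) and lower in PV (-1.57 ± 0.10, SE, adjusted p = 7e-26). In VIP 8 partners were higher and 4 lower, among them Shank1, a scaffold that binds Homer proteins (0.44 ± 0.08, SE, adjusted p = 3.4e-06).

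No member differed between old and young mice at an adjusted p under 0.05 in any neuron type. By edgeR the count was 0 of 8 members tested in PYC, 0 of 9 in PV, 0 of 9 in SST and 0 of 10 in VIP, and 0% of all genes passed in each of the 4 types. DESeq2 and limma-voom also called 0 members in each type. At an unadjusted p under 0.05, 2 members were lower in old PYC pools (Arc and Ier5) where 1.45% of genes were, 1 in SST (Arc) where 1.51% were, 0 in PV where 1.07% were, and 0 in VIP where 1.3% were. The median log2 fold change of the members tested was -0.39 in PYC, -0.31 in PV, -0.64 in SST and 0.051 in VIP, against medians over all genes from -0.0079 to 0.019. Ier2 in PYC, PV and SST and Btg2 in PYC had too few counts to be tested.

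Arc in pyramidal pools had the smallest p of the age comparisons among the members. It ran from 84.6 to 512 CPM with a median of 153 CPM in the 9 young pools, and from 48.4 to 223 CPM with a median of 119 CPM in the 12 old pools. The ages overlapped, with 3 young pools above every old pool and 4 old pools below every young pool. The mean was 196 ± 136.5 CPM (SD, n = 9) in young and 115 ± 49.2 CPM (SD, n = 12) in old pools, and the log2 fold change was -0.76 ± 0.27 (SE, edgeR unadjusted p = 0.00767, adjusted p = 0.9998). The highest pool, young PYC pool 2 with 512 CPM, is also the pool with the lowest mt- share of all 83, 0.215%, and had the highest pyramidal marker sum among the PYC pools, 6836 CPM. Without it the fold change was -0.45 (unadjusted p = 0.0759), and without both PYC pools of low mt- share it was -0.46 ± 0.25 (SE, unadjusted p = 0.0766, edgeR). The part of the pool's mt- share in the difference was not tested. Leaving out any other pool gave an unadjusted p under 0.05. The count of members with such a p for age in PYC depended on the fit. It was 0 with library total as a covariate, 1 with the F number of the sample names as a factor, 2 with DESeq2 and 3 with limma-voom. Median depth was 4.68 M counts in young and 7.70 M in old PYC pools.

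**Figure D3:**
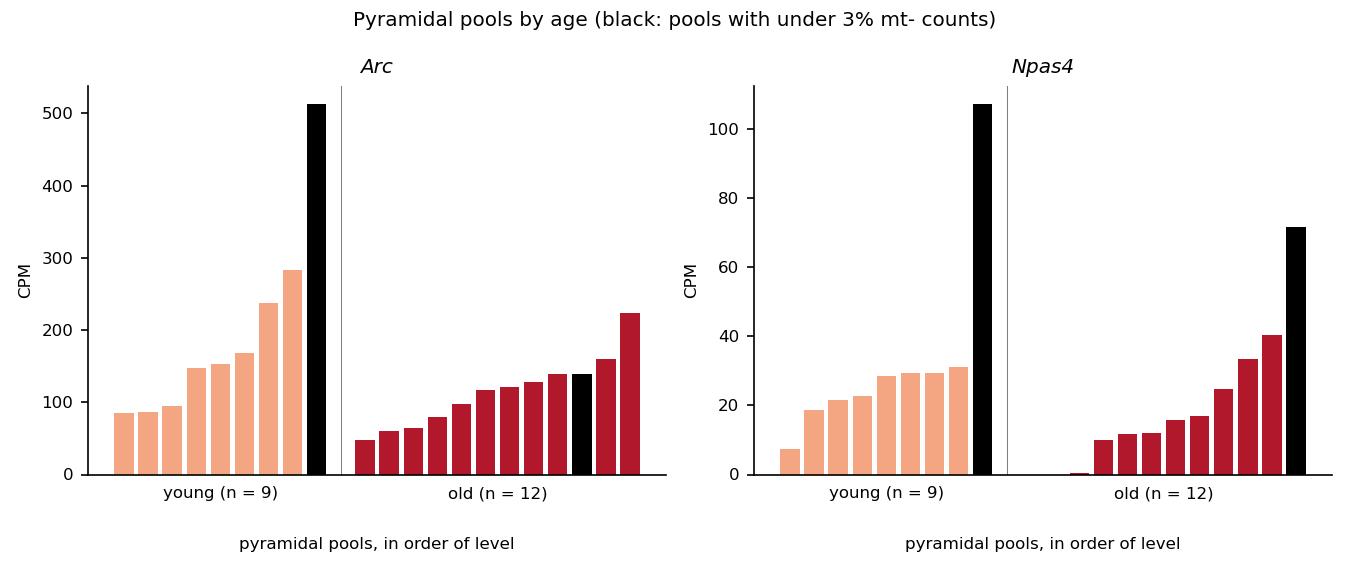
CPM (y axis) of Arc and Npas4 in each pyramidal pool, in order of level within each age; black bars are the pools with under 3% mt- counts. The young pool at 512 CPM of Arc and 107 CPM of Npas4 is the same one, and without it the young pools of Arc reach 284 CPM and the old ones 223 CPM.

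In SST pools Arc ran from 52.8 to 141 CPM with a median of 65.5 CPM in young and from 8.30 to 112 CPM with a median of 34.1 CPM in old mice. Of the 12 old SST pools 8 lay below every young pool, and the others overlapped with the young range. The fold change was -0.73 ± 0.36 (SE, edgeR unadjusted p = 0.0475, adjusted p = 0.9999), and -0.70 ± 0.38 (SE, unadjusted p = 0.0703) without the young pool of low mt- share. Leaving out 1 pool at a time gave an unadjusted p under 0.05 in 9 of 21 cases. The count of members with such a p for age in SST was 0 with DESeq2 or with RLE size factors. It was 1 with library total or the F number in the fit and 2 with limma-voom. In VIP pools Arc ran from 9.32 to 251 CPM with a median of 52.3 CPM in young and from 2.26 to 156 CPM with a median of 38.5 CPM in old mice. The ages overlapped, with 2 young pools above every old pool and 2 old pools below every young pool. The VIP fold change moved from -0.59 ± 0.57 (SE, unadjusted p = 0.305) with all pools to -0.03 ± 0.56 (SE, unadjusted p = 0.956) without the 3 VIP pools of low mt- share. One of these, old VIP pool 11, and old VIP pool 9 had summed levels of 7 SST markers of 2026 and 1784 CPM, against 143 to 476 CPM in the other 10 old VIP pools, 190.5 to 431 CPM in young VIP and 2458 to 4282 CPM in SST pools. All 6 SST markers tested had a fold change above 0 for age in VIP (median 1.21, 0 called, 2 with an unadjusted p under 0.05). Without old pool 9 the Arc fold change was -0.84 (unadjusted p = 0.138) and without old pool 11 it was -0.745 (unadjusted p = 0.201, edgeR), and the part of SST cell RNA in the VIP values was not otherwise tested. In PV, where no pool had a low mt- share, Arc ran from 6.32 to 98.4 CPM in young and from 1.745 to 116.8 CPM in old pools, and the fold change was 0.19 ± 0.53 (SE, unadjusted p = 0.718, edgeR), a sign that limma-voom (-0.21) and 2 other alternatives turned.

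The fitted level of Npas4 was lower in old pools of all 4 types, except that in VIP it was higher by limma-voom (0.50) and without young VIP pool 3 (0.12), and in none of them was the difference larger than the spread. In PYC it ran from 7.38 to 107 CPM with a median of 28.7 CPM in young and from 0 to 71.6 CPM with a median of 13.8 CPM in old pools. The ages overlapped, and the highest pool of each age was one with a low mt- share. In PV and SST the median of Npas4 was also lower in old pools. In VIP it was 11.7 CPM in young and 16.8 CPM in old pools, a direction opposite to that of the fit. The log2 fold changes were -0.77 ± 0.67 in PYC, -1.53 ± 1.36 in PV, -1.05 ± 0.91 in SST and -0.41 ± 0.75 in VIP (SE, edgeR), with unadjusted p from 0.257 to 0.592. Their 95% intervals ran from -2.09 to 0.55 in PYC, -4.20 to 1.13 in PV, -2.84 to 0.74 in SST and -1.89 to 1.07 in VIP. Both no change and a 2-fold lower level in old pools lay within each of them, and a 2-fold higher level within those of PV and VIP. Without the pools of low mt- share the values were -0.67 ± 0.75 in PYC, -1.08 ± 0.96 in SST and -0.03 ± 0.84 in VIP (SE). Without young PYC pool 2 alone the PYC value was -0.32.

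Ier5 in PYC ran from 19.4 to 136 CPM with a median of 76.8 CPM in young and from 7.98 to 73.2 CPM with a median of 38.8 CPM in old pools. All 12 old pools lay below the median of the young pools, and 5 of the 9 young pools lay above every old pool. The fold change was -0.81 ± 0.37 (SE, edgeR unadjusted p = 0.0355, adjusted p = 0.9998), and -0.71 ± 0.39 (SE, unadjusted p = 0.0757) without the pools of low mt- share. Without young PYC pool 2, the highest, it was -0.66 (unadjusted p = 0.0872), and 14 of 21 fits that left out 1 pool had an unadjusted p under 0.05. The other members had unadjusted p of 0.0661 or more in every type, with log2 fold changes from -1.66 (Btg2 in SST) to 0.94 (Dusp1 in PYC).

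**Figure D4:**
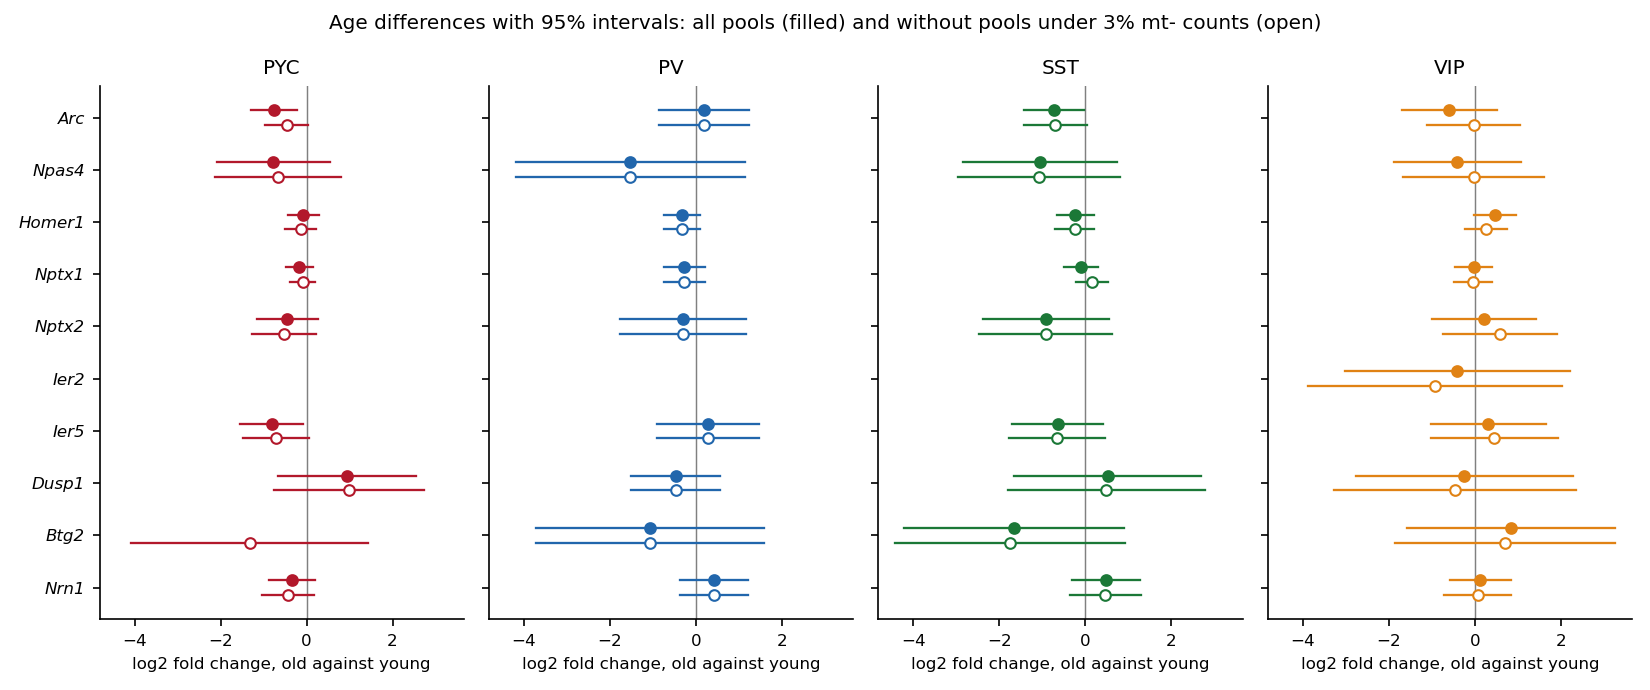
Log2 fold change of old against young pools (x axis) for each gene (y axis) in each neuron type, with 95% intervals; filled points use all pools and open points leave out the pools with under 3% mt- counts. Arc in PYC moves from -0.76 to -0.46 and in VIP from -0.59 to -0.03, and Ier2 in PYC, PV and SST, and Btg2 in PYC with all pools, had too few counts to be drawn.

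The test of whether the age difference itself varies between the 4 types called 0 of the 10 members (edgeR, 3 degrees of freedom), where 0.0648% of all genes passed. No member had an unadjusted p under 0.05, the smallest being 0.0639 for Homer1. DESeq2 and limma-voom also called 0 members. The related lists had no call for age in any type either. Of the rapid factors tested, 12 of 15 had a fold change below 0 in PYC, 7 of 14 in PV, 12 of 15 in SST and 11 of 16 in VIP. The smallest unadjusted p in these lists was that of Egr1 in PYC, with -0.90 ± 0.24 (SE, edgeR unadjusted p = 0.000562, adjusted p = 0.9998) and means of 253 ± 141 CPM (SD, n = 9) in young and 136 ± 47.3 CPM (SD, n = 12) in old pools. Of the other effectors tested, 16 of 26 had a fold change below 0 in PYC, 8 of 22 in PV, 19 of 26 in SST and 13 of 23 in VIP. Over all genes tested, the fold change was below 0 for 6226 of 12508 in PYC, 6218 of 12564 in PV and 6486 of 12805 in SST. No test of the lists as sets was made.

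The 6 pools of low mt- share were set against the rest of their own groups. Npas4 was at its group's highest in 3 of the 6, Arc, Nptx1 and Ier5 in 2 each and Nptx2 in 1, and no other member was at its group's highest in any of them. Homer1 and Dusp1 were each alone at their group's lowest in 1 of the 6, young VIP pool 3. Ier2 had 0 counts, a value shared with other pools of the group, in old PYC pool 10 and young VIP pools 1 and 3. The same held for Btg2 in young VIP pool 3. Young PYC pool 2 led its group in Arc (512 CPM), Npas4 (107 CPM), Nptx1 (847 CPM) and Ier5 (136 CPM), but was 8th of 9 in Nrn1 (129 CPM) and 7th of 9 in Homer1 (222 CPM). Old PYC pool 10 led its group in Npas4 with 71.6 CPM and stood 3rd of 12 in Arc with 140 CPM. The young VIP pools differed from each other, with pool 1 highest in Arc (251 CPM) and Ier5 (68.2 CPM) but 8th of 9 in Npas4 (1.21 CPM), and pool 3 highest in Npas4 (99.7 CPM) and Nptx2 (87.7 CPM). These pools were set apart by their mt- share and not by a label, so no test was made.

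No relation between Arc and another member over the pools of 1 type passed its test. Over 36 relations of Arc with the other 9 members in 4 types, 24 had a Pearson r above 0 on log2 CPM, and 0 had an adjusted p under 0.05 (permutation test, 100000 resamples, Benjamini-Hochberg over the 36). At an unadjusted p under 0.05, 6 relations had r above 0 and none had r below 0. In PV pools r with Npas4 was 0.59 (permutation p = 0.00547, adjusted p = 0.142) and Spearman's rho was 0.615 (adjusted p = 0.138, n = 20), and without the 2 pools farthest from the median of Arc r was 0.512. In SST r with Ier5 was 0.563 (permutation p = 0.00788, adjusted p = 0.142) and rho was 0.452 (adjusted p = 0.273, n = 21), and r was 0.309 without the 2 farthest pools. Within ages, r in SST was 0.495 over the 12 old and 0.0523 over the 9 young pools, and for Npas4 in PV it was 0.633 over the 12 old and 0.624 over the 8 young pools. In PYC the highest r was that with Nptx1, 0.45 (rho 0.447, permutation adjusted p = 0.241 and 0.273), and with Npas4 it was 0.105 (rho 0.207, adjusted p = 0.959 and 0.966). In VIP it was that with Nptx1 too, 0.518 (rho 0.57, adjusted p = 0.203 and 0.138), and with Npas4 it was -0.064 (rho 0.026, adjusted p = 0.959 and 0.966).

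**Figure D5:**
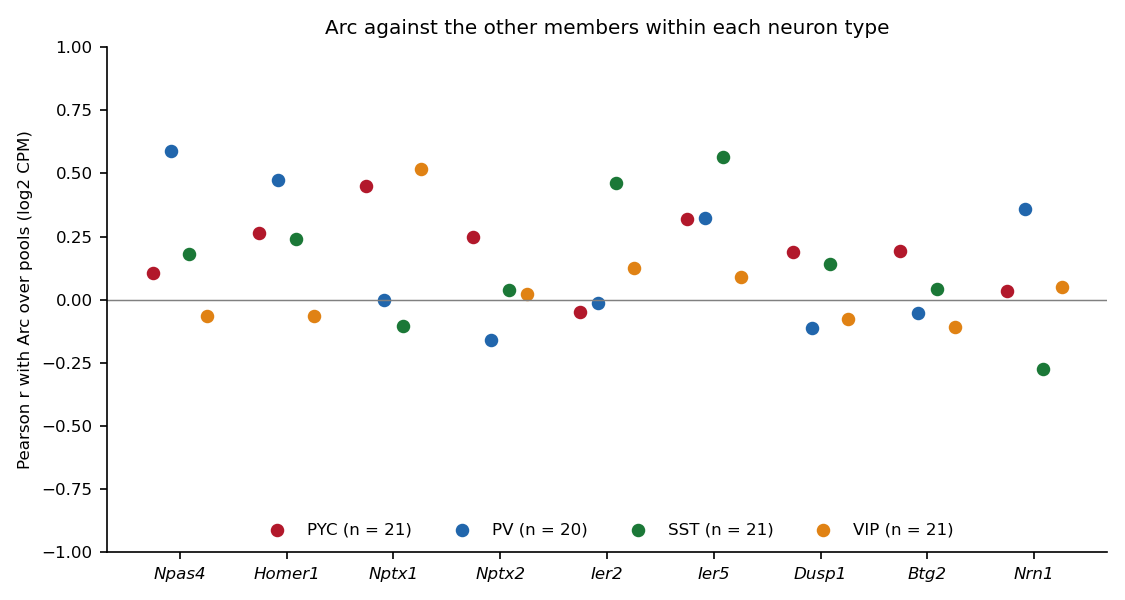
Pearson r (y axis) between Arc and each of the other 9 genes (x axis) over the pools of 1 type, on log2 CPM; colours are types, with 20 or 21 pools each. Values run from -0.275 to 0.59, and none has an adjusted p under 0.05.

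Genes whose level followed that of Arc most closely were ranked over 6964 genes of at least 20 CPM, by Spearman's rho of deviations from the group means of 83 pools. The leading genes were Vgf (0.531), an activity-induced secreted precursor protein, Ppp1r9b (0.522), which encodes the spine protein spinophilin, Lrp1 (0.479), Map6 (0.47) and Arid1b (0.466). The median over all genes was 0.032. Among the members Ier5 ranked 317th (0.283), Homer1 521st (0.249) and Nptx1 888th (0.203), while Nptx2 and Nrn1 had rho of -0.017 and -0.024. The genes share libraries, with their depth and composition, and the values are a description.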

How the data were processed

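RNA of 83 laser-captured pools was sequenced after a stranded total RNA kit for picogram inputs. The deposited values are counts per gene made by the authors. HISAT2 and GRCm38 are named in the submitters' processing notes, without a role for either. How reads were assigned to genes (tool, annotation release, use of strand) was not given in the sources used here. The 10 members and the other lists were chosen with earlier results of these data known.

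Counts were tested with edgeR 4.0.16 (quasi-likelihood F-test, TMM, robust, legacy fit, R 4.3.3) and Benjamini-Hochberg adjustment at 0.05. Age was tested within each type on genes kept by filterByExpr with a minimum count of 10. Types, pairs of types and the interaction used 1 fit of 83 pools and 8 groups on genes with a mean of at least 2 CPM. DESeq2 1.42.0, limma 3.58.1 and the other alternatives of the closing section were also run, and the edgeR steps were tested on simulated counts. Levels are CPM of the library total. Intervals are 95%, and floors are 3 counts of a library's total, for counting error only. Correlations used log2 CPM with a prior of 2 and permutation tests with 100000 resamples, whose smallest possible p is 1e-05 (Python 3.11.15, numpy 2.4.6, pandas 2.3.3, scipy 1.17.1, matplotlib 3.10.9).

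Replicate numbers follow the order of the samples, and the labels do not say which pools came from which mouse, so p-values measure the spread between pools. Exon coordinates are those of GENCODE on GRCm38. All members are named by level. Age fold changes are given for Arc and Npas4 and for members with an unadjusted p under 0.05, type fold changes where the adjusted p is under 0.05, and up to 4 genes with the smallest p of each other list. A type difference above that threshold is given beside it where a statement turns on it.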

Additional observations from a re-analysis of the deposited data

Results flagged for a closer look

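Over the 4 young groups, the only ones small enough to be checked, a single pool stood far from the others in 5 of 40 combinations of gene and group. The rule flags about 1 in 20 by chance where values are normally distributed. CPM values with many low pools are not, so that rate is no yardstick here. All 5 were the highest pools of their groups. Arc was at 512.3 CPM in young PYC pool 2 against 84.6 to 284 CPM in the other 8. Npas4 in the same pool was at 107.2 CPM against 7.38 to 31.0 CPM. Nptx1 was at 511.9 CPM in young SST pool 6 against 118 to 214 CPM in the others. These 3 values come from pools with under 3% mt- counts, 0.215% and 2.14%, and the part of the mt- share in them was not tested. Ier2 was at 22.01 CPM in young VIP pool 4 against 0 to 3.43 CPM, and Btg2 at 57.16 CPM in young SST pool 9 against 0 to 21.2 CPM, both in pools with over 11% mt- counts.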

How the results depend on the processing

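Of the 39 type and pair fold changes called, 0 changed sign under any alternative, and the number that no longer passed was 18 with old pools alone, 16 with young pools alone, 8 with the F number of the sample names as a factor, 5 without the 6 pools of low mt- share, 4 with limma-voom, 2 with RLE size factors, 2 with filterByExpr, 1 with no filter, and 0 with DESeq2, library total as a covariate or edgeR without its legacy option. The count of members called moved by more than 1.5 times in 10 cases, and by less without the low mt- pools (PV 6 instead of 7, pairs 20 instead of 24). For age in PYC it was 1 instead of 0 with no filter, in a fit that called 6505 of 31951 genes. For PV it was 3 instead of 7 with young and 3 with old pools alone. For SST it was 1 with the F number, 1 with young and 0 with old pools alone instead of 2. For VIP it was 1 with limma-voom and 2 without the legacy option instead of 0. Over the pairs of types it was 13 with young and 15 with old pools alone instead of 24. The cause was not tested, beyond the fewer pools within 1 age. Age fold changes of opposite sign were those of Arc in PV (0.19), at -0.21 with limma-voom, -0.52 with the F number and -0.081 without the legacy option, and of Npas4 in VIP (-0.41), at 0.50 with limma-voom. Leaving out 1 pool at a time gave -0.67 to 0.12 for Npas4 in VIP, -2.39 (without old pool 12) to -1.05 for Npas4 in PV, and 0 members called for age in every case. All 240 mean levels recomputed moved by less than 1 SD of the pools in their group. That bound is wide, since leaving out a single pool cannot move a mean by that much, and the other settings only rescale totals. The PV and old SST groups had no pool of low mt- share, so leaving such pools out changed nothing there. No Arc relation passed under the 4 alternatives, 1 of them and edgeR without its legacy option being added after seeing the data. No paired analysis was possible because the replicate numbers follow the order of the samples and the labels carry none. Ier2 and Btg2 had no count in 36 and 27 pools, deep ones among them.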

Other observations

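Among the genes that act with the members, some that encode AMPA receptor subunits differed between types in both directions. Gria1 was higher in SST pools than in the mean of the other types by 0.77 ± 0.08 on the log2 scale (SE, edgeR adjusted p = 1.5e-14) and lower in PYC (-0.64 ± 0.08, SE, adjusted p = 2.7e-10). Gria4, another subunit gene, was higher in PV by 0.98 ± 0.10 (SE, adjusted p = 5.1e-14).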
